A study of Homo sapiens with 4 samples.

Results

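The mitochondrial 16S and 12S ribosomal RNAs (rRNAs), encoded by MT-RNR2 and MT-RNR1, were examined in an iCLIP experiment on PDCD4. All listed sites on the mitochondrial chromosome whose gene label held one of these symbols were taken, which gave 379 of the 270283 sites listed in the experiment. The PDCD4 list held 336 of them, 268 in the 16S and 68 in the 12S rRNA. The IgG list held 43, 14 in the 16S and 29 in the 12S rRNA. Membership was decided by chromosome and gene symbol, but the pair of genes was selected on its high cDNA scores in the PDCD4 list, so those scores are given as a description with no test.

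In iCLIP, UV light joins proteins to the RNA they touch, one protein is pulled down with an antibody, and cDNA synthesis tends to end next to the nucleotide that was joined. The cells were wild-type MCF10A, an established line of non-transformed breast epithelial cells, grown without further treatment. Lysates from irradiated cells were immunoprecipitated with an antibody against PDCD4 (2 samples, PDCD4_1 and PDCD4_2) or with control IgG (2 samples), and the authors deposited 1 pooled list for each. A listed site is 1 nt wide and its score is the number of cDNAs counted there. No list gives a value for a single sample, so the spread between replicates is unknown, no test between PDCD4 and IgG could be run, and all intervals (95%) express counting error alone. In total, 409308 cDNAs at 158922 sites were listed for PDCD4 and 276139 cDNAs at 111361 sites for IgG. Sites with a score greater than 5, the threshold in the study's methods, numbered 2354 (19332 cDNAs) and 768 (4980 cDNAs). All 11 epithelial markers looked for had a PDCD4 site, 1 of them only a single site of score 3, and 10 had an IgG site. None of the 6 markers of blood, endothelial, mesenchymal (type I collagen genes) and liver cells had a site in either list. The vimentin gene VIM, with 597 PDCD4 cDNAs, was not among these markers.

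Mitochondria make their own ribosomes. The 12S rRNA is the scaffold of the small subunit, which reads the mRNA, and the 16S rRNA is the scaffold of the large subunit, in which peptide bonds form. Both are cut from one long transcript of the heavy strand, in which tRNAs lie between and beside the rRNAs. Stretches of mitochondrial DNA have also been copied into the nuclear chromosomes during evolution, and copies of both rRNA genes are among them. PDCD4 is a tumour suppressor known for inhibiting translation initiation in the cytoplasm. In MCF10A cells the study found it predominantly in the nucleus.

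In the genome build GRCh38 (GENCODE release 44), MT-RNR1 (ENSG00000211459) lies on the plus strand of the mitochondrial chromosome at MT:648-1601, a length of 954 nt. MT-RNR2 (ENSG00000210082) follows at MT:1671-3229, with 1559 nt. The tRNA genes MT-TF, MT-TV and MT-TL1 border them in the order MT-TF, 12S, MT-TV, 16S, MT-TL1. Neither rRNA gene has an intron, and every listed site lay on the plus strand. Positions below are counted from the 5′ end of each rRNA.

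The sequences at the highest sites are shown so that the bases at and after the listed nucleotide, which are compared with those of other sites further on, can be read. Each is the reference sequence on the plus strand (GRCh38, in DNA letters) from 10 nt before to 10 nt after the listed nucleotide, which is in capitals. The first 10 are the highest sites of the 16S rRNA in the PDCD4 list, in order along the rRNA.
16S nt 37, MT:1697-1717, score 57: accttactacCagacaacctt
16S nt 196, MT:1856-1876, score 45: atgaattaacTagaaataact
16S nt 552, MT:2212-2232, score 87: caacacccacTacctaaaaaa
16S nt 572, MT:2232-2252, score 59: atcccaaacaTataactgaac
16S nt 703, MT:2363-2383, score 54: actgacaattAacagcccaat
16S nt 705, MT:2365-2385, score 42: tgacaattaaCagcccaatat
16S nt 1036, MT:2696-2716, score 72: aggcgggcatAacacagcaag
16S nt 1040, MT:2700-2720, score 59: gggcataacaCagcaagacga
16S nt 1127, MT:2787-2807, score 46: accaaacctgCattaaaaatt
16S nt 1194, MT:2854-2874, score 47: tgctaagactTcaccagtcaa
12S nt 55, MT:692-712, score 15: cacatgcaagCatccccgttc
12S nt 66, MT:703-723, score 15: atccccgttcCagtgagttca
12S nt 75, MT:712-732, score 12: ccagtgagttCaccctctaaa
12S nt 310, MT:947-967, score 13: tttagatcacCccctccccaa
12S nt 756, MT:1393-1413, score 14: gcccttatgaAacttaagggt
16S nt 87 in the IgG list, MT:1747-1767, score 9: ggcgatagaaAttgaaacctg
12S nt 299 in the IgG list, MT:936-956, score 9: gtaaagagtgTtttagatcac

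The 10 windows of the 16S rRNA held 7 to 11 adenosines and 1 to 6 uridines among 21 nt. The listed nucleotide was a cytidine in 4 of them, a uridine in 4, an adenosine in 2 and a guanosine in none. In the 5 windows of the 12S rRNA from the PDCD4 list it was a cytidine in 4 and an adenosine in 1. Other 16S sites shared the score of 42 with nt 705.

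The 16S rRNA carried a far larger share of the PDCD4 list than of the IgG list. Over every listed site it held 3742 cDNAs (0.914% of the list, Wilson interval 0.886% to 0.944%) for PDCD4 and 55 cDNAs (0.0199%, 0.0153% to 0.0259%) for IgG. The log2 ratio of the shares, with 1 cDNA added to each sum, was 5.49 (5.11 to 5.88), a 45.1-fold difference. The 12S rRNA held 344 cDNAs (0.0840%, 0.0756% to 0.0934%) for PDCD4 and 123 (0.0445%, 0.0373% to 0.0531%) for IgG. Its log2 ratio was 0.91 (0.61 to 1.20). The log2 ratio of the 16S rRNA thus exceeded that of the 12S rRNA by 4.59 (4.10 to 5.07), although both are cut from the same transcript. According to the methods, IgG crosslink sites were removed from the PDCD4 samples but not from the IgG list. Such removal can only lower the PDCD4 sums, and the IgG list held 29 sites in the 12S and 14 in the 16S rRNA. Its effect on this and all further ratios of PDCD4 over IgG was not tested.

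Of 3977 genes with 50 or more cDNAs in the lists together, 542 had a log2 ratio above 1, a background of 13.6%, 509 (12.8%) had one below -1, and the median of all was -0.14 (quartiles -0.66 and 0.53). Of the rRNAs, the 16S was above 1 and the 12S below. The 16S rRNA ranked 7th by this ratio and the 12S rRNA 619th. By the distance of their log2 ratios, the genes most like the 16S rRNA among 1794 genes with 100 or more cDNAs were SNORD3A (178 cDNAs for PDCD4 and 3 for IgG, log2 ratio 4.92), VIM (597 and 13, 4.85) and SNORD118 (106 and 0, 6.17, a value that depends on the added cDNA). SNORD3A and SNORD118 are small nucleolar RNAs that serve in processing of the cytoplasmic rRNA, and VIM encodes vimentin, an intermediate filament protein. Those most like the 12S rRNA were GANAB, CANX and LMNB2, each with a log2 ratio of 0.90.

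The difference between the rRNAs was also seen in the size of single sites. At scores greater than 5, the 16S rRNA kept 192 PDCD4 sites with 3489 cDNAs, which were 18.0% (17.5% to 18.6%) of all cDNAs above that threshold, and no other gene held as many. The 12S rRNA kept 24 sites with 226 cDNAs (1.17%, 1.03% to 1.33%), the 8th largest sum. In the IgG list the 16S rRNA kept 3 sites with 21 cDNAs (0.422%, 0.276% to 0.644%), and the 12S rRNA 8 sites with 59 cDNAs (1.18%, 0.920% to 1.53%), the 6th largest sum of that list. The share of the 12S rRNA above the threshold therefore did not separate the lists, with a log2 ratio of -0.04 (-0.45 to 0.37), whereas that of the 16S rRNA remained at 5.35 (4.75 to 5.96). Around the threshold, 11 PDCD4 sites of the 16S rRNA had a score of 6 and 17 a score of 5, and for the 12S rRNA there were 4 of each.

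The high tail of the PDCD4 list consisted largely of 16S sites. They were 127 of the 282 sites with a score greater than 10 (45.0%, 39.3% to 50.9%), 54 of 70 above 20, 30 of 34 above 30, and 69 of the 100 highest sites. The highest scores outside the mitochondrial rRNAs were 42 in PLEC, which encodes the cytolinker plectin, 41 in RYR2 and 37 in VIM. In the 16S rRNA the median score was 10 over every listed PDCD4 site and the highest was 87. In the 12S rRNA the median was 4 and the highest 15. In the IgG list both rRNAs reached 9, with medians of 4 (16S) and 3 (12S).

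Per length, the order of the rRNAs was opposite in the lists. In the PDCD4 list the 16S rRNA held 9.45 times as many cDNAs per kb as the 12S rRNA at scores greater than 5 (8.26 to 10.8), and 6.66 times as many over every listed site (5.96 to 7.43). In the IgG list the 12S rRNA held 3.65 times as many per kb as the 16S rRNA (2.66 to 5.02). The amount of each RNA in these cells was not analysed here, and more RNA cannot be told apart from more contact per molecule.

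The rest of the mitochondrial genome carried far fewer PDCD4 cDNAs than the 16S rRNA. Of 4800 PDCD4 cDNAs on this chromosome, 78.0% lay in the 16S and 7.17% in the 12S rRNA. Of 866 IgG cDNAs, 6.35% and 14.2% did. Expressed per 10000 cDNAs of the list and per kb, the 16S rRNA reached 58.6, the 12S rRNA 8.81 and the highest of the 13 protein-coding genes, MT-CO2, 4.50 in the PDCD4 list. In the IgG list the 12S rRNA stood at 4.67, MT-CO1 at 3.92 and the 16S rRNA at 1.28.

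**Figure D1:**
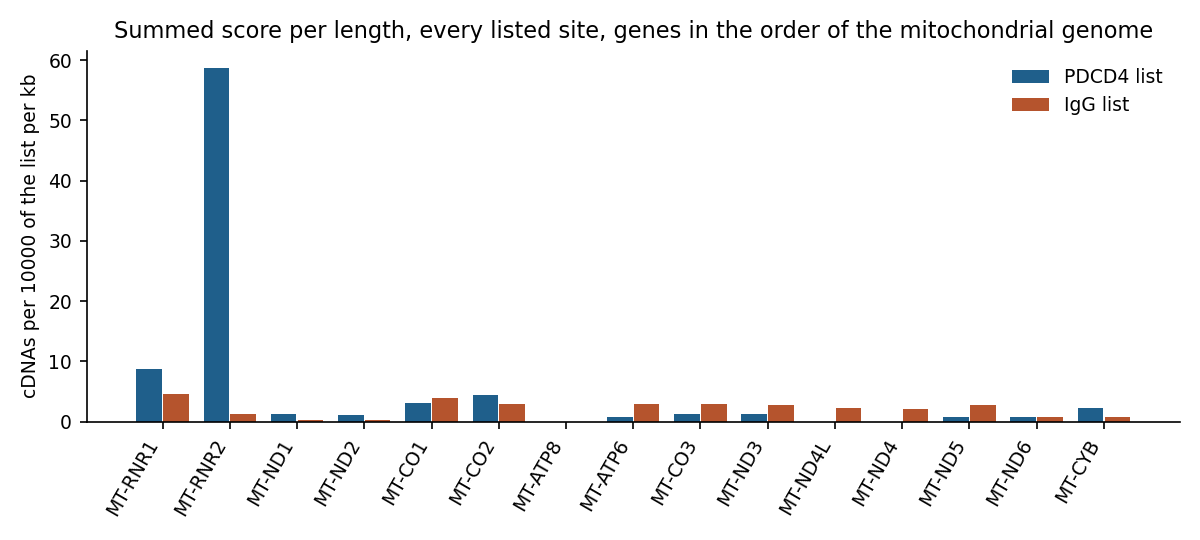
Summed score per 10000 cDNAs of the list and per kb of gene (vertical axis, linear) for both rRNA genes and the 13 protein-coding genes of the mitochondrial genome in genome order, PDCD4 list in blue and IgG list in orange, every listed site. MT-RNR2 (16S) reaches 58.6 for PDCD4 and 1.28 for IgG, and MT-RNR1 (12S) 8.81 and 4.67. Bars carry no error because each list pools its samples.

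MT-CO1, MT-CO2 and MT-CYB, which encode subunits of the cytochrome c oxidase and cytochrome bc1 complexes, had the largest PDCD4 sums outside the rRNAs. MT-CO1 held 191 PDCD4 and 167 IgG cDNAs (log2 ratio -0.38, -0.67 to -0.08). MT-CO2 held 126 and 54 (0.64, 0.18 to 1.10), and MT-CYB 103 and 27 (1.33, 0.72 to 1.93). MT-ND1, the coding gene that follows the 16S rRNA, held 48 and 8 (1.88, 0.85 to 2.90). Of 11 mitochondrial genes with at least 50 cDNAs over both lists, 4 had a log2 ratio above 1 (MT-RNR2, MT-ND1, MT-ND2 and MT-CYB) and 4 one below -1 (MT-ATP6, MT-CO3, MT-ND4 and MT-ND5), beside the 13.6% above 1 and 12.8% below -1 among all genes tested. MT-ND4 had no listed PDCD4 cDNA and 83 IgG cDNAs, so its ratio depends on the added cDNA, and the other ratios outside the rRNAs ran from -1.89 to 1.92.

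The tRNAs beside the rRNAs had few sites. MT-TF, before the 12S rRNA, had 1 PDCD4 site with a score of 8, and MT-TV, between the rRNAs, had 3 with 20 cDNAs, while the IgG list held none in either. MT-TL1, after the 16S rRNA, had no PDCD4 site and 3 IgG sites with 13 cDNAs.

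Nuclear genes that act on these rRNAs or on other mitochondrial RNAs (transcription, processing, stability, modification and assembly) numbered 43 in the list used (45 symbols, 2 of them older names of other members), and all but DDX28 had a site. Of the 9 with at least 50 cDNAs, none had a log2 ratio above 1 or below -1, where the shares over all genes were 13.6% and 12.8%, so that about 1 gene in each direction would match the background. Their median log2 ratio was -0.19, beside -0.14 over all genes. The largest PDCD4 sums were those of LRPPRC, which stabilises mitochondrial mRNAs (111 and 85 cDNAs, -0.19), DHX30, a helicase of mitochondrial ribosome assembly (58 and 27, 0.51), and METTL15, a methyltransferase of the 12S rRNA (51 and 61, -0.82).

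Along the 16S rRNA, the PDCD4 sites formed dense groups separated by empty stretches. Of the 192 sites with a score greater than 5, 143 (74.5%) had another such site on the adjacent nucleotide, against 6 of 24 (25%) in the 12S rRNA. These sites also lay more densely, with 12.3 per 100 nt in the 16S and 2.52 in the 12S rRNA. Both lists hold sites that passed peak calling. The part of density and of peak calling in the grouping was not tested. Sites at most 10 nt from the next were joined into hot spots. This gave 34 hot spots in the 16S rRNA, 17 of them with 5 or more sites and 3 with a single site, and together they spanned 330 nt, or 21.2% of the rRNA. The 10 largest held 58.7% of its score.

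**Figure D2:**
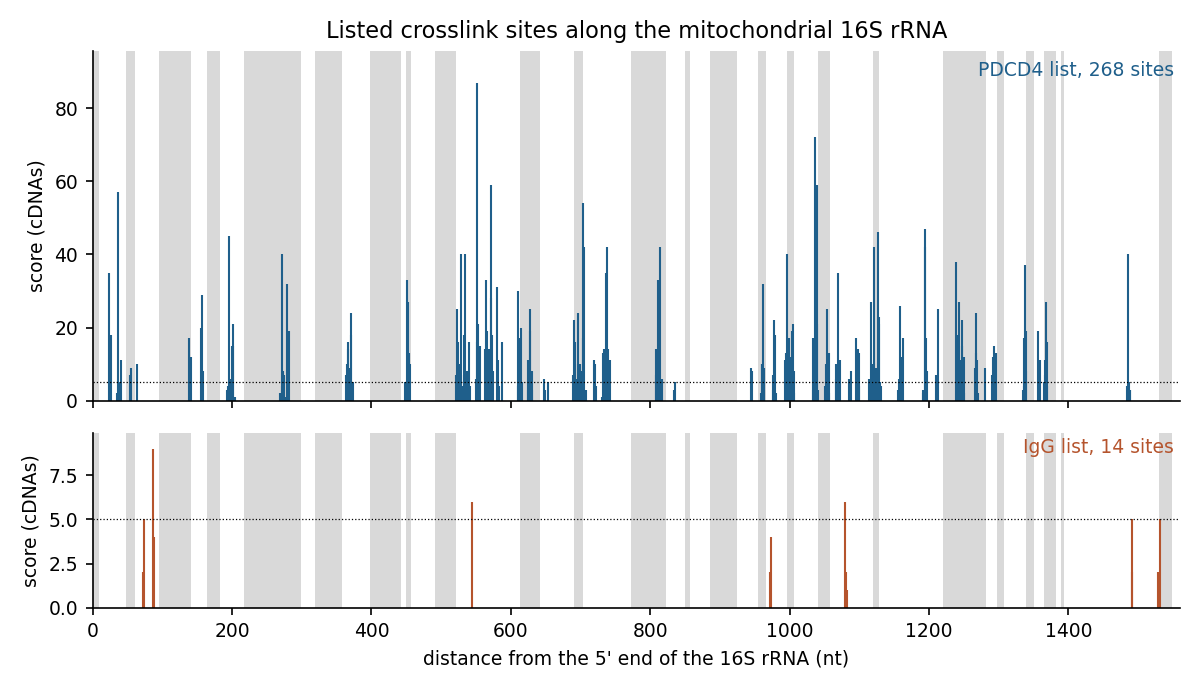
Score (cDNAs, vertical axis, different scales in the panels) of every listed site by its distance from the 5′ end of the 16S rRNA (nt), PDCD4 list above and IgG list below. Dotted lines mark a score of 5, and grey bands mark positions whose next 30 nt have an exact copy elsewhere in the genome. The PDCD4 list shows 268 sites in groups along the rRNA with a highest score of 87, and the IgG list 14 sites with a highest score of 9.

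The largest hot spot spanned nt 522 to 588 (MT:2192-2258) with 27 sites and 589 cDNAs, 16.9% of the 16S score, and contained the highest site of the list at nt 552 and another of the highest at nt 572. The next was nt 690 to 705 (MT:2360-2375), with 13 sites and 230 cDNAs, which ended in the pair of high sites at nt 703 and 705. Nt 1114 to 1129 (MT:2784-2799) held 11 sites and 207 cDNAs. The most compact of the large ones was nt 1033 to 1040 (MT:2703-2710), where 5 sites within 8 nt held 181 cDNAs, most of them at nt 1036 (72) and nt 1040 (59). Nt 1239 to 1250 (160 cDNAs), nt 993 to 1007 (154), nt 732 to 742 (139), nt 24 to 40 (133), nt 808 to 817 (132) and nt 1052 to 1072 (124) completed the 10 largest.

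The signal was spread over many of these nucleotides. The 10 highest sites held 16.3% (15.1% to 17.5%) of the 16S score above the threshold, and 47 sites were needed to reach 50% of it. In the 12S rRNA, with 24 sites in all, the 10 highest held 54.0% (47.5% to 60.4%).

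No file used here gives the borders of the structural domains of these rRNAs, so the length of each was cut into 10 equal segments, numbered from the 5′ end. In the 16S rRNA segments 4 and 5 (nt 469 to 780) held 32.0% (30.4% to 33.5%) of the PDCD4 score above the threshold, and segments 7 and 8 (nt 937 to 1248) held 35.0% (33.4% to 36.6%). Each pair covers about 20% of the length. Between them, segment 6 (nt 781 to 936) held 3.78% (3.20% to 4.47%). Segments 1 to 3 (nt 1 to 468) together held 18.9% (17.7% to 20.3%), segment 9 held 9.20% (8.29% to 10.2%), and segment 10 held 1.15% (0.843% to 1.56%), all of it in 1 site of score 40. Positions whose next 30 nt have an exact copy elsewhere in the genome made up 23.7% to 26.3% of segments 4, 5, 7 and 8. They made up 42.9% to 64.7% of segments 1, 2, 3, 6 and 9, but 12.3% of segment 10. The part of such copies in this profile was not tested. The longest stretch without any listed PDCD4 site was nt 1371 to 1483, 113 nt. It contains the unknown base of the mitochondrial reference at nt 1437, whose part in this gap was not tested.

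The 14 IgG sites of the 16S rRNA had other shares by segment. Segment 1 held 36.4% (24.9% to 49.6%) of their 55 cDNAs, against 6.28% (5.55% to 7.10%) of the PDCD4 cDNAs over every listed site. Segment 10 held 25.5% (15.8% to 38.3%) against 1.47% (1.13% to 1.91%). In the IgG list 4 sites gave each of these shares, and the intervals treat cDNAs of 1 site as independent. The effect on these shares of removing IgG crosslink sites from the PDCD4 samples was not tested. The IgG sites above the threshold were single nucleotides at nt 87 (score 9), nt 544 and nt 1079 (6 each). No position of the 16S rRNA was in both lists, which the removal of IgG crosslink sites described in the study's methods would also give. At a distance of up to 10 nt, 10 of the 14 IgG sites had a PDCD4 site, and 59.9% of all 16S positions did.

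The 12S rRNA had a different profile, with signal in a 5′ and a 3′ part and almost none between them. Its segment 1 (nt 1 to 96) held 31.4% (25.7% to 37.7%) of the PDCD4 score above the threshold, as much as segments 8 to 10 (nt 669 to 954) together (31.9%, 26.1% to 38.2%). Segments 5 to 7 (nt 383 to 668) held no site above the threshold and 3 sites with 7 cDNAs below it. There were 12 hot spots, 6 of them single sites. The largest were nt 55 to 75 (MT:702-722), with 4 sites and 50 cDNAs (22.1% of the 12S score), nt 304 to 314 (MT:951-961), with 4 sites and 40 cDNAs, and nt 87 to 104 (MT:734-751), with 4 sites and 28 cDNAs. Over every listed site, nt 1 to 382 held 67.7% (62.6% to 72.5%) of the PDCD4 cDNAs and 48.0% (39.3% to 56.7%) of the IgG cDNAs, and nt 669 to 954 held 30.2% (25.6% to 35.3%) and 46.3% (37.8% to 55.1%). These intervals express counting error alone and are no test between the lists. They treat every cDNA as independent, although many share a nucleotide, so they are too narrow by an unknown amount. Above the threshold, nt 669 to 954 held 31.9% (26.1% to 38.2%) for PDCD4, at 8 sites, and 49.2% (36.8% to 61.6%) for IgG, at 4 sites. There, nt 1 to 382 held 68.1% (61.8% to 73.9%) for PDCD4, at 16 sites, and 40.7% (29.1% to 53.4%) for IgG, at only 3 sites.

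**Figure D3:**
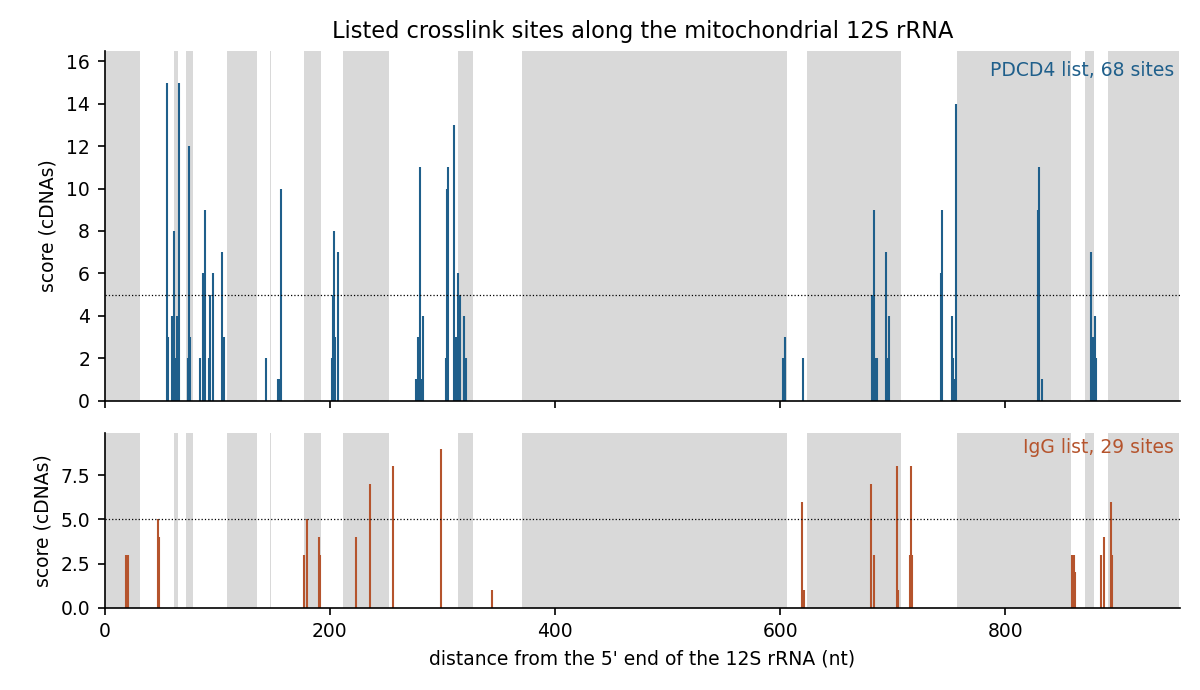
Score (cDNAs, vertical axis, different scales in the panels) of every listed site by its distance from the 5′ end of the 12S rRNA (nt), PDCD4 list above and IgG list below, with the dotted line at a score of 5 and grey bands where the next 30 nt have an exact copy elsewhere in the genome. The highest PDCD4 score is 15 and the highest IgG score 9, and neither list has a site between nt 345 and nt 602.

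In the 12S rRNA, nt 683 was listed in both lists, with a score of 9 for PDCD4 and 3 for IgG. A full removal of IgG sites from the PDCD4 samples would not have left this position. No other position was shared, which such a removal would also give. Of the 29 IgG sites, 11 had a PDCD4 site within 10 nt, and 37.4% of all 12S positions did. The highest IgG sites lay at nt 299 (9), nt 256, 704 and 716 (8 each), and nt 236 and 681 (7 each), of which nt 681 was the nearest to a PDCD4 site of score greater than 5, the one at nt 683.

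**Figure D4:**
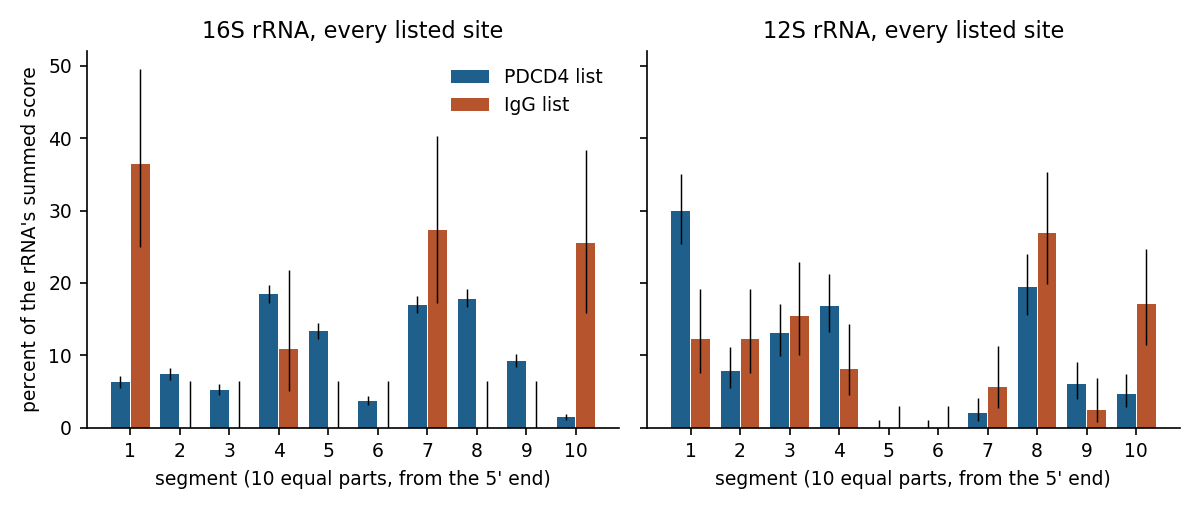
Percent of each rRNA's summed score (vertical axis) in 10 equal segments of its length from the 5′ end (horizontal axis), 16S rRNA on the left and 12S rRNA on the right, every listed site, PDCD4 list in blue and IgG list in orange, with 95% Wilson intervals of the counts. In the 16S rRNA the PDCD4 bars peak in segments 4 (18.4%) and 8 (17.9%), and in the 12S rRNA segment 1 holds 29.9% and segments 5 and 6 hold none in either list.

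Both lists were empty over the same part of the 12S rRNA. No PDCD4 site was listed from nt 322 to 602 (MT:969-1249, 281 nt), and no IgG site from nt 345 to 618 (MT:992-1265, 274 nt). This part coincides with sequence that exists elsewhere in the genome. For 84.7% of the positions in the empty PDCD4 stretch, the next 30 nt had an exact copy in another place of GRCh38, and for 76.9% the next 50 nt did. The longest run of positions with a 50-nt copy, nt 371 to 586 (216 nt), had no site in either list. How reads that match several places were treated is not given in the sources used here, and their part in this gap was not tested.

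Over the whole length, such copies were more common in the 12S rRNA, where 66.1% of positions had a copy of the next 30 nt, than in the 16S rRNA, where 38.6% had one. In the 16S rRNA the PDCD4 sites were about as frequent where such a copy exists, with 16.8 listed sites per 100 nt at positions with a copy and 17.4 at positions without. In the 12S rRNA they were 3.96 and 13.3. With copies of 50 nt, the 16S rRNA also had fewer sites where a copy exists, 9.28 against 18.6 per 100 nt. Restricted to positions without a 30-nt copy, the 16S rRNA held 4.76 times (4.05 to 5.60) as many PDCD4 cDNAs per kb as the 12S rRNA at scores greater than 5, in place of 9.45 times, and its log2 ratio of PDCD4 over IgG was 4.98 (4.58 to 5.38). The log2 ratio of the 12S rRNA became 1.20 (0.81 to 1.59) under this restriction, above the value of 1 that it missed over all positions. In the IgG list, this restriction left the 16S rRNA at 0.255 times (0.177 to 0.369) the density of the 12S rRNA over every listed site.

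Nuclear genes that resemble the 16S rRNA had few sites. MTRNR2L1 on chromosome 17 had 11 PDCD4 sites with 39 cDNAs, MTRNR2L12 on chromosome 3 had 4 with 15, and MTRNR2L8 on chromosome 11 had 2 with 5, and the IgG list held none in these genes. Such reads and those of the 16S rRNA share near-identical sequence, so the division between them is uncertain.

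The bases at the listed nucleotide differed between the 16S sites and the nuclear sites of the PDCD4 list. Across nuclear genes, 75.4% (73.5% to 77.2%) of the 2104 PDCD4 sites above the score threshold were at a pyrimidine, that is a cytidine or uridine, and 10.1% (8.86% to 11.4%) at an adenosine. Of the 192 sites in the 16S rRNA, 45.8% (38.9% to 52.9%) were at a pyrimidine and 44.3% (37.4% to 51.3%) at an adenosine. The 16S rRNA as a whole has 47.5% pyrimidines and 35.1% adenosines. Uridine, the base at 40.3% (38.2% to 42.4%) of the nuclear sites, was at 22.4% (17.1% to 28.8%) of the 16S sites and makes up 22.1% of the rRNA. Sites on adjacent nucleotides share their neighbourhood, so the intervals for the 16S rRNA are too narrow by an unknown amount.

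The other mitochondrial RNAs were like the nuclear ones in this respect. Of the 208 PDCD4 sites on this chromosome outside both rRNAs, 73.1% (66.7% to 78.6%) were at a pyrimidine, beside 73.2% (73.0% to 73.4%) of all nuclear PDCD4 sites and 42.9% (37.1% to 48.9%) of all 268 sites in the 16S rRNA. Those intervals of the 16S and the other mitochondrial sites did not overlap. Among the 12S sites of the PDCD4 list 50% (38.4% to 61.6%) were at a pyrimidine, and among the 29 IgG sites of the 12S rRNA 72.4% (54.3% to 85.3%). Among the 14 IgG sites of the 16S rRNA the share was 35.7% (16.3% to 61.2%), so the low share was present in the control list too, as far as 14 sites show. In the flanks from 6 to 10 nt on either side, uridine averaged 21.9% around 16S sites, beside 21.6% at the listed nucleotide. For nuclear genes it averaged 29.4% in the flanks and 46.7% at the listed nucleotide, over every listed site.

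**Figure D5:**
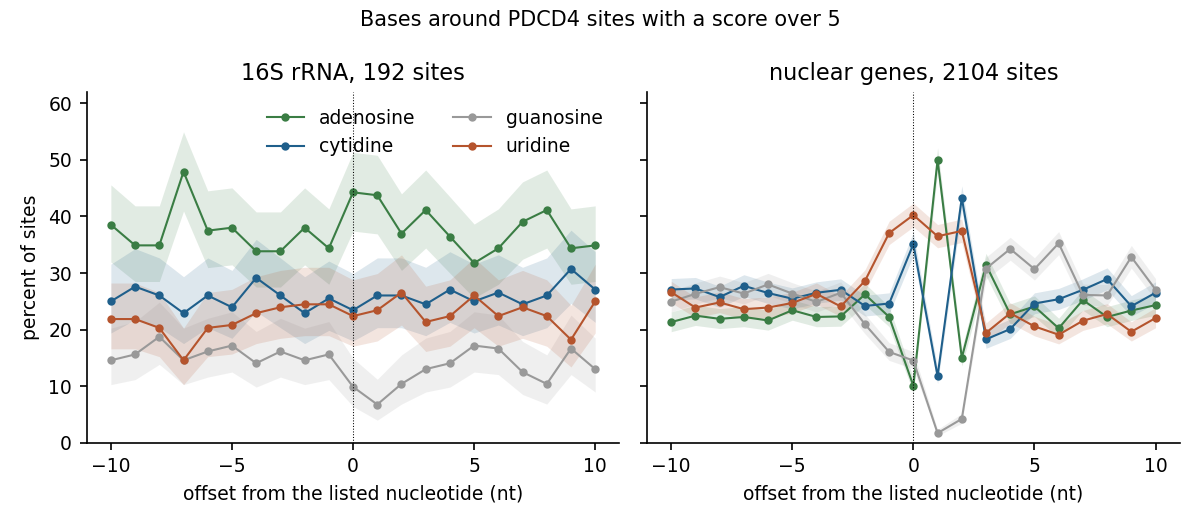
Percent of PDCD4 sites above a score of 5 (vertical axis) that have each base at offsets of -10 to 10 nt from the listed nucleotide (0, dotted line), for 192 sites in the 16S rRNA (left) and 2104 sites in nuclear genes (right), each site counted once, with shaded 95% Wilson intervals. Nuclear sites show 40.3% uridine and 10.1% adenosine at the listed nucleotide and 1.71% guanosine on the next, and the 16S sites 22.4%, 44.3% and 6.77%.

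The next nucleotide, where a truncated cDNA would begin, was an adenosine at 50% and a guanosine at 1.71% of the nuclear PDCD4 sites above the threshold. In the 16S rRNA it was an adenosine at 43.8% (36.9% to 50.8%) and a guanosine at 6.77% (13 of 192 sites), where the whole rRNA has 17.3% guanosine. These shares varied with the score, and not in the 16S rRNA alone. Over every listed site, 36.9% of nuclear PDCD4 sites were followed by an adenosine, against the 50% above the threshold. For nuclear IgG sites these values were 33.5% and 40.4%. Among the 54 highest 16S sites, with scores over 20, 59.3% (46.0% to 71.3%) were followed by an adenosine and none by a guanosine, which allows a share of up to 5.56% when 3 of the 54 sites are taken as the limit of a count of 0 (Wilson upper limit 6.64%). Among the 76 sites with scores of 1 to 5 the same shares were 26.3% (17.7% to 37.2%) and 19.7% (12.3% to 30.04%). A pyrimidine followed by an adenosine, as at nt 37, 196, 552, 572, 705, 1040 and 1127 of the sequences above, made up 29.6% (19.1% to 42.8%) of the sites over 20 and 5.26% (2.07% to 12.8%) of those of 1 to 5, against 16.4% of all positions in the rRNA. Of nuclear PDCD4 sites, 28.3% were of this kind over every listed site and 41.6% above the threshold. For nuclear IgG sites these shares were 25.9% and 32.1%. The nucleotides on either side of such a pyrimidine cannot be of this kind themselves. Of all 268 listed 16S sites, 233 (86.9%) adjoined another, and the part of this in the shares by score was not tested. At the listed nucleotide itself, even the sites over 20 had 51.9% (38.9% to 64.6%) pyrimidines, below the 75.4% of nuclear sites, which were those with scores over 5.

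The 3′ ends of both rRNAs were without PDCD4 sites. The last listed site lay 70 nt before the 3′ end of the 16S rRNA and 73 nt before that of the 12S rRNA, while the IgG list had 2 sites (16S) and 1 site (12S) in the last 60 nt. At the 5′ ends, the first PDCD4 site was at nt 24 of the 16S and nt 55 of the 12S rRNA. The first IgG sites were at nt 72 and nt 19.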

How the data were processed

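Crosslink sites of 2 PDCD4 and 2 IgG iCLIP samples of MCF10A cells were used. UVC-irradiated cells were processed by the authors with an improved iCLIP protocol, single-end sequencing and iCount against the Ensembl release 88 genome (GRCh38). The deposited score is a raw count of cDNAs at each position, not normalised, with both replicates pooled in each list. According to the methods, sites seen with IgG were taken out of the PDCD4 samples ahead of peak calling. The score filter of the methods is not applied in the deposited lists and was applied here (greater than 5). Settings for alignment, collapsing of cDNAs and reads with several placements are not given in the sources used here. RNA-seq and protein measurements were not analysed here.

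Sites were taken by chromosome and exact gene symbol, and sites with several gene labels were counted for each gene. Shares have 95% Wilson intervals, and ratios have 95% counting intervals with 1 cDNA added to each sum. Library depth sets these intervals, and PCR or replicate variation is not in them. Sequences and exact copies of the next 20, 30 or 50 nt (both strands, all sequences of the assembly) were read from GRCh38, and gene borders from GENCODE release 44. The unknown base of the mitochondrial reference at 16S nt 1437 was left out of base shares.

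Named genes were both rRNAs, the 3 other mitochondrial genes with the largest PDCD4 sum, bordering tRNAs, MT-ND1, MTRNR2L genes with a site, the 3 nuclear genes for mitochondrial RNAs with the largest sum, and the 3 genes nearest to each rRNA by log2 ratio. PLEC and RYR2, DDX28, the other mitochondrial genes above 1 or below -1, the base shares by score and the comparison of steps to the next nucleotide were chosen after seeing the values. The members and lists were chosen with earlier results of these data known. The statistics were tested on simulated data. Python 3.11.15, numpy 2.4.6, pandas 2.3.3, scipy 1.17.1, matplotlib 3.10.9 and pysam 0.24.0 were used.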

Additional observations from a re-analysis of the deposited data

How the results depend on the processing

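No paired analysis was possible because each list pools its 2 samples and no column holds a value for 1 of them, and for the same reason no replicate could be left out. Positions without an exact 30-nt copy elsewhere are an alternative chosen after seeing the data. Of 81 alternative values, 42 stayed within the interval or within 1.5 times the count given above, 38 left it and 1 changed sign. No cause of these shifts was tested beyond what each alternative itself removes or adds. The log2 ratio of the 16S rRNA was above 3 under every alternative tried, and that of the 12S rRNA changed sign at scores greater than 5 (-0.037).

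The PDCD4 share of the 16S and 12S rRNA was 56.4% and 1.94% at scores greater than 10, 0.914% and 0.0840% over every listed site, 8.16% and 1.02% by number of sites, 21.8% and 1.41% of a total without the 10 largest other genes, and 11.5% and 0.812% at positions without a copy. The log2 ratio of PDCD4 over IgG was 3.65 for the 16S rRNA by number of sites and 4.98 without copies, where that of the 12S rRNA was 1.20. Without the 10 highest sites of each rRNA in each list it was 8.06 (16S) and 1.45 (12S), which for the 16S rRNA leaves only 4 IgG sites. The density of the 16S over the 12S rRNA was 17.8 at scores greater than 10, 6.66 over every listed site, 4.90 by number of sites, 17.2 without the 10 highest sites of each and 4.76 without copies.

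The 5 highest sites held 9.57% of the 16S and 30.5% of the 12S score, and over every listed site the 10 highest of the 12S rRNA held 35.5%. With gaps of up to 20 nt the 16S rRNA had 17 hot spots. At scores greater than 10 the 12S rRNA had 6 PDCD4 hot spots and the IgG list 0 in the 16S and 0 in the 12S rRNA. Over every listed site the IgG list had 7 (16S) and 13 (12S). Segment 4 of the 16S rRNA held 20.3% at scores greater than 10, 15.6% of the sites, 16.7% without its highest site and 28.7% without copies. With 5 longer segments in place of 10, the one that contains it held 23.99%. Segment 1 of the 12S rRNA held 41.2% at scores greater than 10, and the one of 5 longer segments that contains it held 38.9%. Above the threshold, 14 sites of the 16S rRNA and 2 of the 12S rRNA had a 50-nt copy, and over every listed site 25 of the 12S rRNA had a 30-nt copy. All alternatives for the uridine share stayed within its interval. With 24 PDCD4 sites above the threshold in the 12S rRNA and 14 IgG sites in the 16S rRNA, depth limits what their profiles show.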
